A study of Mus musculus with 6 samples.

Results

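The genes described here are those whose symbols begin with Ube2, the ubiquitin-conjugating enzymes, and those whose symbols begin with Usp and a digit, the ubiquitin-specific proteases, without Usp18. Of 14148 genes in the table, 77 met this rule, 33 of them Ube2 and 44 Usp genes. Symbols alone chose them, so genes of other function are included, such as Ube2cbp, which is classed with the ubiquitin ligases, and Usp6nl, a GTPase-activating protein for Rab GTPases. The RNA came from microglia, brain-resident macrophages, of 18-month-old male C57BL/6 mice. Hippocampal cells were gated live as CD11b-positive with low CD45 and sorted by BODIPY, a dye for neutral lipid, into a lipid droplet-high (LD-high) and a lipid droplet-low (LD-low) fraction. There were 3 LD-high and 3 LD-low libraries, each from about 10000 cells of 3 pooled mice. Strain, age and sex were shared by all, and the labels give no transgene or treatment.

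Ubiquitin is passed to proteins by a relay of an activating enzyme (E1), a conjugating enzyme (E2) and a ligase (E3). The Ube2 genes encode the E2 step, and the choice of E2 helps to set which kind of ubiquitin chain is built; some E2 enzymes carry SUMO, NEDD8 or ISG15 instead. The Usp genes encode the largest class of deubiquitinases, cysteine proteases that take ubiquitin off again. In macrophages, both steps act on immune receptor signalling, on the sorting of receptors in endosomes and on the removal of misfolded proteins and damaged mitochondria.

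The libraries held between 15895576 reads in genes (LD-high replicate 3) and 38489448 (LD-low replicate 1). All 8 microglial markers were present, with sums of normalized counts of 1398400 to 1607820 in LD-high and 1434770 to 1677020 in LD-low libraries. Markers of some other cells differed between the fractions. The 7 neutrophil markers in the table (Lcn2, S100a8, S100a9, Mmp8, Camp, Ngp and Ltf) were at 0 in every LD-high library and summed to 1222 to 4563 in LD-low libraries, and 6 of 6 tested fell in LD-high. Choroid plexus markers summed to 1711 to 5570.5 in LD-high and 367 to 1795 in LD-low libraries, and 3 of 5 tested rose. Myelin markers summed to 5453 to 6013 in LD-high and 4648 to 4896 in LD-low libraries. Astrocyte markers summed to 7926 to 8854 in LD-high and 6455 to 7786 in LD-low libraries, with Aqp4 at 0 in every LD-high library. Sums were 16990.2 to 22421 in LD-high and 18256 to 19932 in LD-low libraries for border-associated macrophages, of which 7 of 8 tested markers had a log2 change below 0 (median -0.52). Neuron markers summed to 23.8 to 29.1 in LD-high and 9.12 to 27.1 in LD-low libraries. None of the tested myelin, astrocyte, macrophage, neuron or microglial markers passed the test. The part of these cells in the results on the Ube2 and Usp genes was not tested. In bulk samples, fewer cells of a type and less RNA per cell cannot be told apart.

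In LD-high microglia, 2 Ube2 genes rose and 1 Usp gene fell. Ube2j1, an E2 anchored in the endoplasmic reticulum membrane that serves the disposal of misfolded proteins, was 1.25-fold its LD-low level. Ube2h, the E2 partner of the multi-subunit CTLH ligase, was 1.2-fold its LD-low level. Usp34, a very large deubiquitinase known in human cells for acting on axin in Wnt signalling, was 0.460 times its LD-low level. The other 71 of 74 tested members did not pass. Of all 11624 tested genes 3.36% passed, 1.53% higher and 1.82% lower, so the 4.05% of members that passed lay near the background. Count tests on the recovered reads called 2 Ube2 members higher and 1 Usp member lower by edgeR, against 3.24% of all genes, and by DESeq2 4 Ube2 members higher, and 3 Usp members higher and 1 lower, against 6.27% of all genes. Those that DESeq2 added were Ube2d3, Ube2g1, Usp8, Usp22 and Usp54, all higher. The test was limma, a linear model with moderated variances, on log2(normalized count + 1), with p-values adjusted over all tested genes and a threshold of 0.05. A normalized count is a gene's read count divided by 1 size factor per library. Folds are on the log2(normalized count + 1) scale, which understates the change of low genes.

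**Figure D1:**
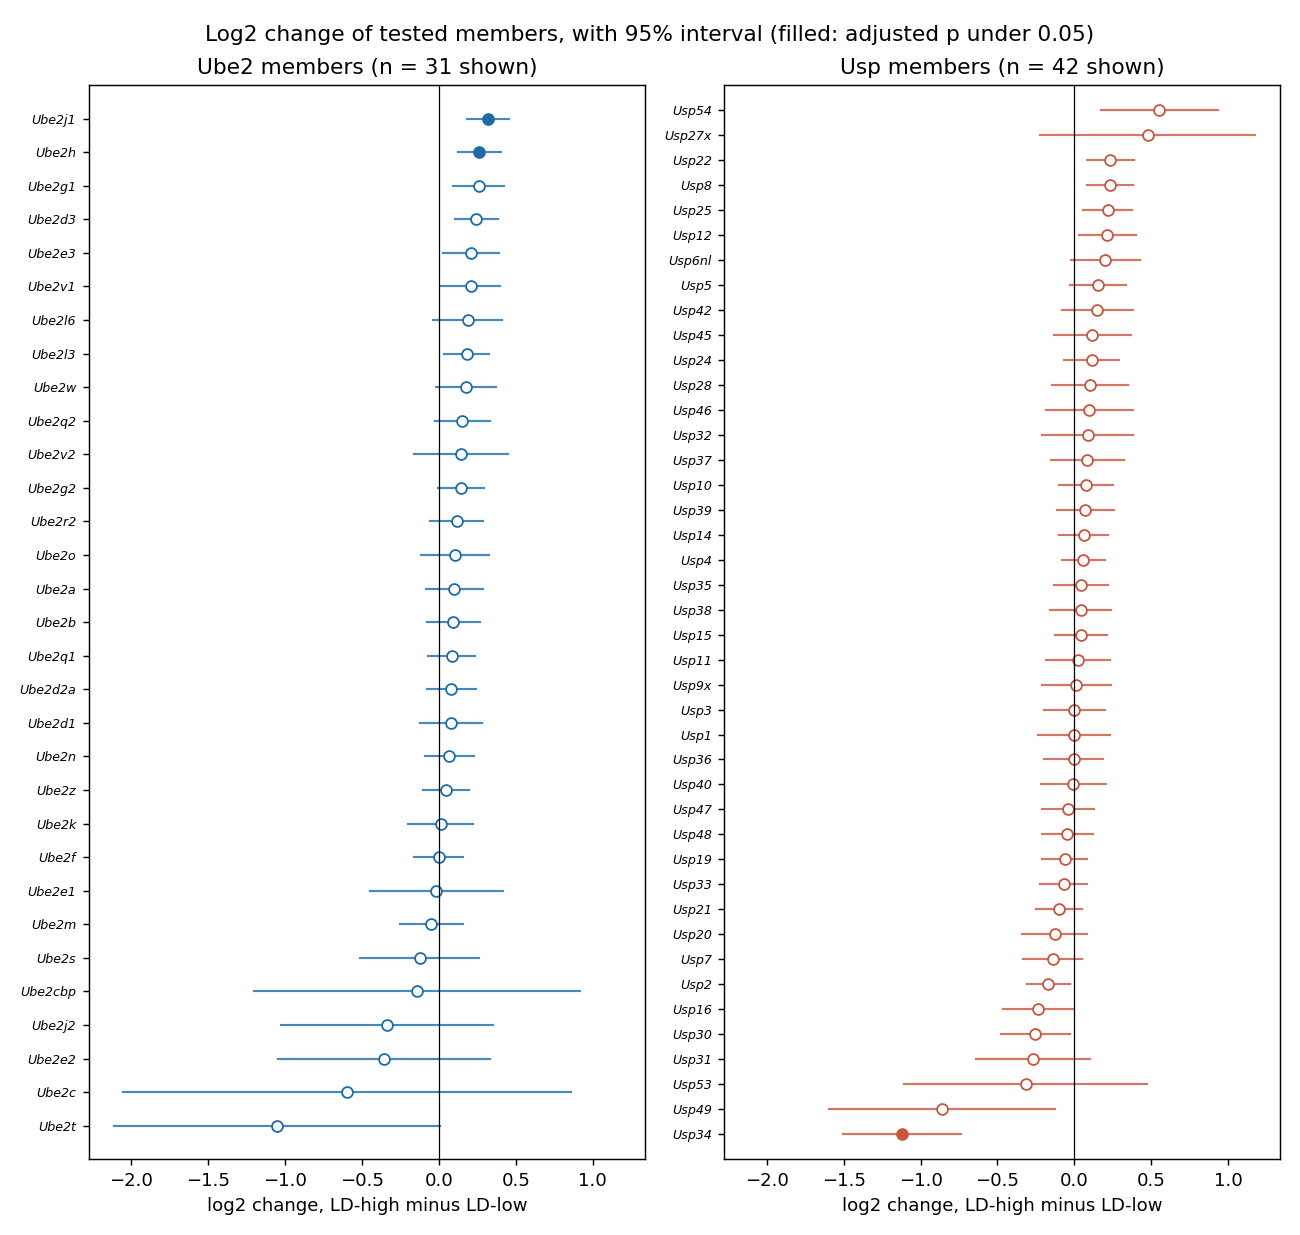
Log2 change (LD-high minus LD-low, horizontal axis) of the tested Ube2 members but 1, and of the 42 tested Usp members, ordered by size, with 95% intervals from limma; filled circles passed the test. Ube2j1 (0.32), Ube2h (0.26) and Usp34 (-1.12) are filled, and the widest intervals belong to members with low counts such as Ube2c and Ube2t.

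The promoters of these 3 genes are shown because they are the members past the test. Each line gives the 250 bases before the annotated start, from RefSeq on build GRCm38.p6, read 5′ to 3′ on the gene's strand. That of Ube2j1 lies at chr4:33031130-33031379 on the plus strand, the first of 2 listed for Ube2h at chr6:30304540-30304789 on the minus strand and that of Usp34 at chr11:23306645-23306894 on the plus strand. Capitals mark GC boxes (GGGCGG on either strand, some overlapping each other) and the cAMP response element (TGACGTCA).
Ube2j1: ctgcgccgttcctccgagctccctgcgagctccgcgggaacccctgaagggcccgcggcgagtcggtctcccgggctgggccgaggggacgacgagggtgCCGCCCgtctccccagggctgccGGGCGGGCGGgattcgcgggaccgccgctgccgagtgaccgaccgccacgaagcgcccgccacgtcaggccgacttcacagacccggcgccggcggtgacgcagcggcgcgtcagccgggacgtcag
Ube2h: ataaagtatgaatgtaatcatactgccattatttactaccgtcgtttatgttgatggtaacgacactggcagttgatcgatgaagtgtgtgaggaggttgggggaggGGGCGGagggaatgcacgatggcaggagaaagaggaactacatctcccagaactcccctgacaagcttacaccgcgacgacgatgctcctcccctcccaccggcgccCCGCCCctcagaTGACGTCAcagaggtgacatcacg
Usp34: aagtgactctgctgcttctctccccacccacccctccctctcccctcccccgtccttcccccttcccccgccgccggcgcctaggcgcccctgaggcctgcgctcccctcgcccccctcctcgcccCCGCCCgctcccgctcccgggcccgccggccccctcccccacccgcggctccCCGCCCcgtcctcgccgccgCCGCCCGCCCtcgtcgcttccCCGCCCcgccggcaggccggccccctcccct
GC boxes, the usual sites of Sp1-type factors, numbered 3 in Ube2j1, 2 in the Ube2h promoter shown and 5 in Usp34. The second promoter listed for Ube2h, not shown, held 0 GC boxes and 0 cAMP response elements, with a G and C content of 42.8%. At least 1 GC box was found in 21 of 25 tested Ube2 members (84.0%) and 24 of 33 tested Usp members (72.7%) with a listed promoter, counting a gene once over all its promoters, against 64.4% of 8856 tested genes counted the same way. Of all 32851 single promoters, tested genes or not, 32.7% held it. The median G and C content was 69.2% in Ube2 and 65.4% in Usp promoters (all listed, tested or not), against 52.4% in all 32851 promoters. That background includes promoters of genes not tested here, and the content in tested genes alone was not taken, so the families are not shown to differ from tested genes. Among these members the cAMP response element was found in Ube2h alone, against 3.16% of tested genes and 1.55% of all promoters. The ER stress element, searched on both strands, was in no member's window, in 0.181% of tested genes and in 0.113% of all promoters. The E-box (CACGTG) was in 2 Ube2 and 4 Usp members, against 10.1% of tested genes and 6.02% of all promoters, and CCAAT on either strand in 6 and 5, against 40.6% and 33.8%. These matches describe letters in a window, not binding.

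Ube2j1 (ENSMUSG00000028277.7, chr4:33118391-33139338 on mm9, plus strand) had 6936, 6706 and 6859 normalized counts in LD-high and 5706, 5285 and 5416 in LD-low libraries, for replicates 1, 2 and 3. Every LD-high library lay above every LD-low library, with a gap wider than the range within either group. The log2 change was 0.32 ± 0.06 (SE; 95% interval 0.19 to 0.46; adjusted p 0.0179). Leaving out LD-high replicate 3 lost the call (adjusted p 0.0701), as did leaving out LD-low replicate 2 (0.0899) or LD-low replicate 3 (0.0725). Log2 changes were 0.30 to 0.35 over the 6 fits that leave out 1 library. Limma without the mean-variance trend also lost the call (adjusted p 0.171).

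Ube2h (ENSMUSG00000039159.10, chr6:30161289-30254539 on mm9, minus strand) had 5314, 5387 and 5219 normalized counts in LD-high and 4654, 4361 and 4269 in LD-low libraries. The groups did not overlap, and the LD-high libraries lay close together. The log2 change was 0.26 ± 0.07 (95% interval 0.12 to 0.40; adjusted p 0.0413). The call held without LD-low replicate 1 (adjusted p 0.0324). It was lost without LD-high replicate 1 (0.0848), LD-high replicate 2 (0.108), LD-high replicate 3 (0.100), LD-low replicate 2 (0.157) or LD-low replicate 3 (0.153). Equal totals (0.0615) and limma without the mean-variance trend (0.200) also lost the call. Of the 100-base windows of its transcript, 30.6% also occur in the annotated gene Gm2058, so its counts are uncertain.

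Usp34 (ENSMUSG00000056342.9, chr11:23206916-23389744 on mm9, plus strand) had 129, 114 and 169 normalized counts in LD-high and 257, 318 and 315 in LD-low libraries. The highest LD-high library lay well under the lowest LD-low library. The log2 change was -1.12 ± 0.18 (95% interval -1.50 to -0.74, adjusted p 0.00566). Without LD-low replicate 3 the adjusted p was 0.0502, and by limma without the mean-variance trend it was 0.142. Its exons overlap those of Ahsa2 on the opposite strand over 1321 of 17637 bases, and the counting is not stated to use strand. Ahsa2 had a log2 change of -0.19 ± 0.12 (adjusted p 0.396). Per kb of transcript Usp34 was low, with 12.1 in LD-high and 26.1 in LD-low libraries (normalized counts per kb). Of the other large Usp genes, Usp9x had 116 in LD-high and 116 in LD-low libraries per kb and a log2 change of 0.01 ± 0.11 (adjusted p 0.969). Usp24 had 198 in LD-high and 184 in LD-low libraries per kb and a log2 change of 0.11 ± 0.08 (adjusted p 0.497). Usp31, with a transcript of 10198 bases, was also low, with 28.9 in LD-high and 34.6 in LD-low libraries per kb. Its log2 change was -0.27 ± 0.17 (adjusted p 0.409), with overlapping groups.

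**Figure D2:**
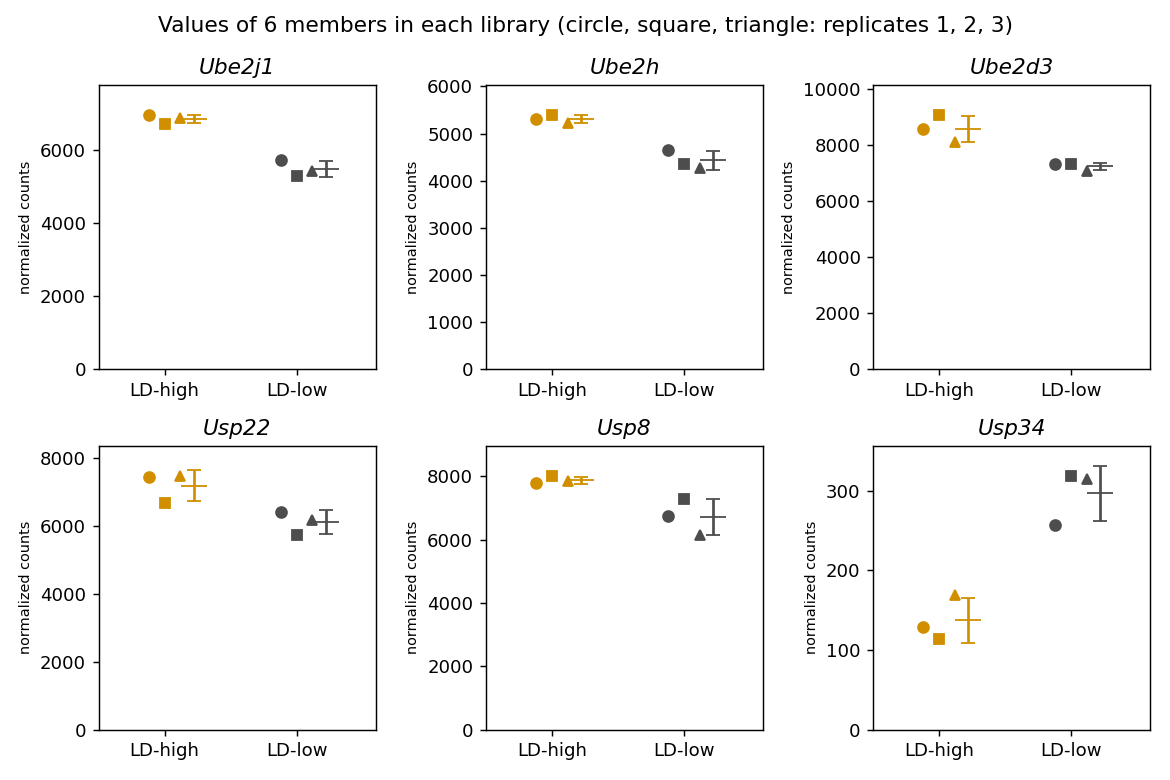
Normalized counts (vertical axes, from 0) of 6 members in each of 3 LD-high and 3 LD-low libraries, with bars for the mean ± SD. LD-high values lie above all LD-low values for Ube2j1, Ube2h, Ube2d3, Usp22 and Usp8, while Usp34 lies at 114 to 169 in LD-high and 257 to 318 in LD-low libraries.

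The families were then set against each other. Of the tested Ube2 members 23 of 32 had a log2 change above 0 (71.9%) and of the Usp members 25 of 42 (59.5%), against 48.7% of all genes. The median log2 change was 0.09 for Ube2, 0.04 for Usp and -0.01 for all genes. Groups did not overlap for 10 Ube2 members (31.2%), 9 higher and 1 lower, and for 7 Usp members (16.7%), 3 higher and 4 lower. Of all genes 24.3% did not overlap, 12.7% higher and 11.7% lower. At an unadjusted p under 0.05 there were 7 Ube2 members higher and 0 lower, and 5 Usp members higher and 5 lower, against 9.68% of all genes higher, 10.1% lower and 19.8% in either direction. With equal totals per library the medians were 0.05 for Ube2, -0.00 for Usp and -0.05 for all genes, so the sign of the Usp median depends on the scaling. The Usp minus Ube2 difference in medians was -0.0468, with an SD between replicates of 0.0505. That SD is a spread of single replicates and not the SE of the difference, and no test of the difference was made.

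By library, the median Ube2 member stood 0.09, 0.13 and 0.08 above its LD-low mean on the log2 scale in LD-high replicates 1, 2 and 3, and at -0.01, -0.00 and -0.01 in the LD-low libraries. The median Usp member stood at -0.01, 0.04 and 0.02 in LD-high and -0.00, 0.03 and 0.01 in LD-low libraries. LD-low medians lie near 0 by construction, since each gene was set against its own LD-low mean. The median of all tested genes ranged from -0.00188 (LD-low replicate 3) to 0.00471 (LD-low replicate 1) over the libraries. Ube2 medians did not overlap between the groups and Usp medians did. Summed Ube2 levels were 60714, 62745 and 60020 normalized counts in LD-high and 55541, 54438 and 53796 in LD-low libraries, a mean difference of 12%. Summed Usp levels were 81314, 81805 and 84657 in LD-high and 80212, 81573 and 79498 in LD-low libraries, a mean difference of 2.69%, with overlapping groups. With library totals made equal (CPM), the sums were 2209, 2372 and 2262 in LD-high and 2057, 2112 and 2121 in LD-low libraries for Ube2, a mean difference of 8.79%. For Usp they were 2959, 3092 and 3189.8 in LD-high and 2970.0, 3165 and 3135 in LD-low libraries, a mean difference of -0.304%, so the sign of the Usp difference depends on the scaling. On the deposited scaling, Ube2j1, Ube2d3 and Ube2h made up 54.5% of the Ube2 difference.

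**Figure D3:**
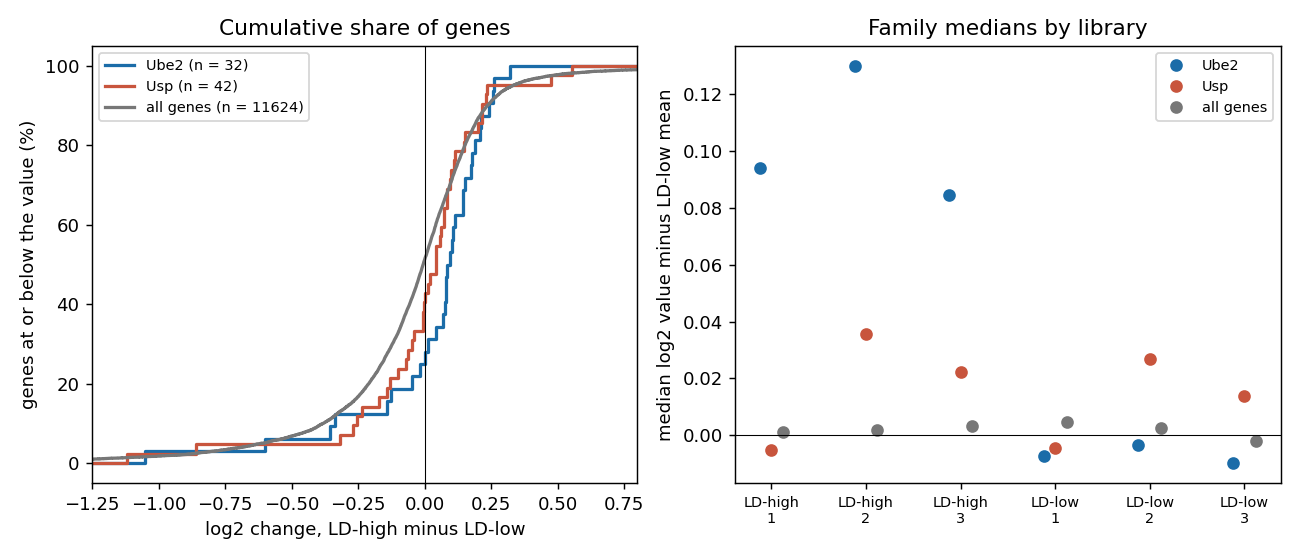
Left, cumulative share of genes (%) by log2 change for 32 Ube2 members, 42 Usp members and 11624 tested genes; right, the median log2 value of each set in each library relative to the LD-low mean. Ube2 medians are 0.08 to 0.13 in LD-high libraries and, by construction, near 0 in LD-low libraries, and Usp medians are mixed.

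Ube2 transcripts are the shorter ones, with a median of 2758.5 bases (988 to 5205) among tested members, against 4559 (2244 to 11887) among Usp members and 3092 for all genes. Across members, which share the same 6 libraries, Spearman's rank correlation between length and log2 change was 0.244 for Ube2 (n = 32) and -0.0132 for Usp (n = 42). Over 11272 genes it was 0.00405. The rank correlation between the mean log2 level and the log2 change was 0.654 in Ube2, 0.138 in Usp and 0.257 over 11272 genes. Of 24 Ube2 members averaging 500 normalized counts or more, a division chosen after the values were seen, 22 had a log2 change above 0 (91.7%, against 56.5% of all genes at that level). Of the 8 lower ones 1 did (12.5%, against 38.1%). For Usp the counts were 20 of 33 (60.6%) and 5 of 9 (55.6%).

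**Figure D4:**
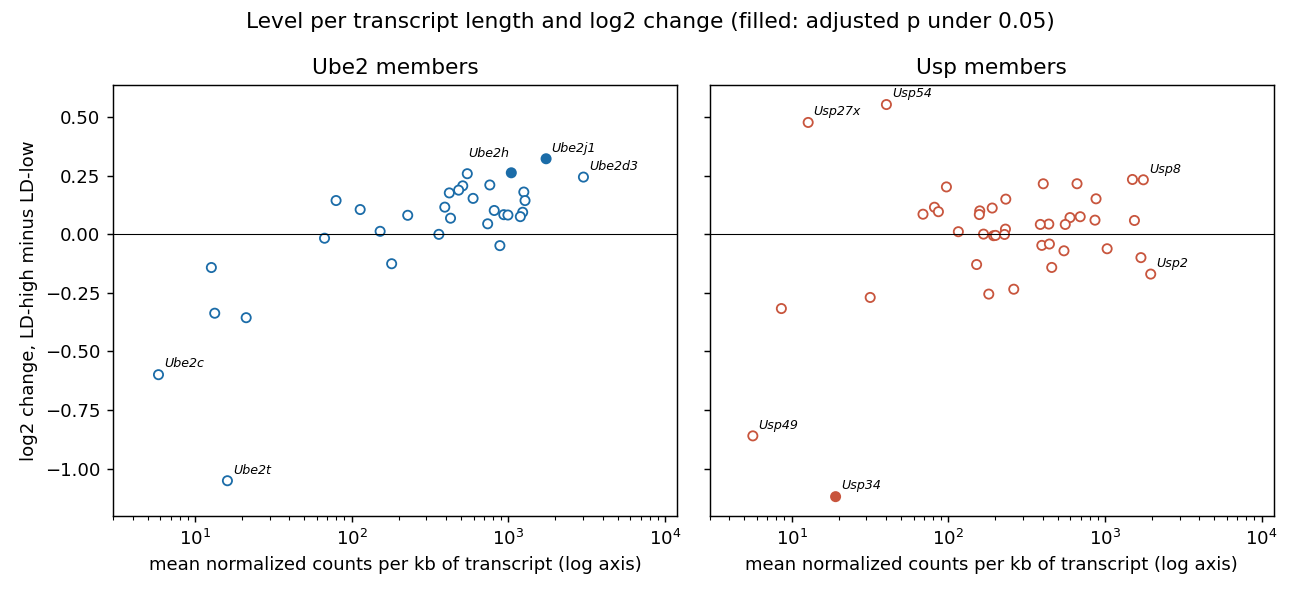
Log2 change (LD-high minus LD-low) against mean normalized counts per kb of transcript (log axis) for 32 Ube2 and 42 Usp members; filled circles passed the test. Low Ube2 members such as Ube2c and Ube2t lie below 0 and most high ones above 0, while Usp members lie on both sides at low and high levels.

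Per kb of transcript, the most abundant E2 gene was Ube2d3, a broadly acting E2 used by many ligases, with 3272 in LD-high and 2761 in LD-low libraries (normalized counts per kb). Next came Ube2j1 with 1936 in LD-high and 1549 in LD-low libraries. Ube2g2, an E2 for the disposal of endoplasmic reticulum proteins, had 1342 in LD-high and 1216 in LD-low libraries. Close to it lay Ube2l3, which serves HECT and RBR ligases such as parkin, with 1335 in LD-high and 1177 in LD-low libraries, and Ube2b, a Rad6-type E2 of histone H2B, with 1277 in LD-high and 1193 in LD-low libraries. Ube2d3 itself had 8552, 9048 and 8111 normalized counts in LD-high and 7299.6, 7316 and 7079.7 in LD-low libraries. The groups did not overlap, but the log2 change of 0.24 ± 0.07 (adjusted p 0.0543) missed the threshold. Ube2d3 passed in 5 of 13 other settings, among them DESeq2 (0.0121), a filter at 50 (0.0493) and the length correction (0.0458). It did not pass with equal totals (0.0939) or by limma without the mean-variance trend (0.207). Of the 6 fits that each leave out a library, 0 called Ube2d3 (adjusted p 0.0675 to 0.168). None of the 6 tested Ube2d and Ube2e genes passed, and their median was 0.08; Ube2e3 had 0.21 ± 0.09 (adjusted p 0.191), without overlap.

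Of 6 E2 genes of the endoplasmic reticulum and of K48-linked chains, which mark proteins for the proteasome, 1 rose (Ube2j1) and 5 did not pass, with a median of 0.13. The share called higher over all tested genes was 1.53%. Ube2g1, also an E2 of K48-linked chains, had 2252, 2535 and 2246 normalized counts in LD-high and 2067, 1856 and 1954 in LD-low libraries. Its groups did not overlap, and the log2 change of 0.26 ± 0.08 (adjusted p 0.0851) missed the threshold, with an adjusted p of 0.0493 by DESeq2. Ube2g1 was called in 3 of 13 other settings and in 0 of the 6 fits that leave out 1 library (adjusted p 0.0747 to 0.270). Ube2g2 had 0.14 ± 0.07 (adjusted p 0.280) and Ube2k, which extends K48-linked chains, 0.01 ± 0.10 (adjusted p 0.962). Part of the Ube2g2 exons (166 of 2431 bases) lies in Sumo3 on the same strand.

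None of the 3 E2 genes of K63-linked chains, which serve immune signalling, passed. Ube2n, the catalytic subunit, had 1687 ± 57.1 normalized counts in LD-high and 1609 ± 50.9 in LD-low libraries (mean ± SD, 3 libraries each), a log2 change of 0.07 ± 0.08 (adjusted p 0.662) with a 95% interval of -0.09 to 0.23. Its non-catalytic partners Ube2v1 and Ube2v2 had 0.21 ± 0.09 (adjusted p 0.223) and 0.14 ± 0.14 (adjusted p 0.616). Ube2v1 is uncertain, since 82.9% of its 100-base windows occur in other genes, Tmem189 among them.

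The 5 genes grouped as E2 enzymes of ubiquitin-like proteins did not pass, with a median of 0.04. The NEDD8 enzymes Ube2m and Ube2f had -0.05 ± 0.10 (adjusted p 0.831) and -0.00 ± 0.08 (adjusted p 0.998). Ube2l6, the interferon-induced E2 of ISG15, had 801 ± 63.3 normalized counts in LD-high and 703 ± 68.9 in LD-low libraries (mean ± SD, 3 libraries each), or 0.19 ± 0.11 (adjusted p 0.341) on the log2 scale, with overlapping groups. Ube2z, which works with the E1 enzyme Uba6, had 0.04 ± 0.07 (adjusted p 0.779).

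None of the 5 tested E2 genes of DNA repair and cell division passed. Ube2t, an E2 of the Fanconi anaemia pathway, had 17.9, 8.96 and 8.35 normalized counts in LD-high and 20.3, 29.2 and 23.2 in LD-low libraries, without overlap (log2 change -1.05 ± 0.50, adjusted p 0.255). Ube2c and Ube2s, which work with the anaphase-promoting complex, had -0.60 ± 0.68 (adjusted p 0.675) and -0.13 ± 0.18 (adjusted p 0.756), with overlapping groups. The 5 cell cycle markers summed to 234 to 254 in LD-high and 312 to 394 in LD-low libraries, none passed, and their part in these values was not tested. Ube2b had 0.09 ± 0.08 (adjusted p 0.552). Among the other Ube2 genes, Ube2l3 had 4279.7, 3838 and 3957 normalized counts in LD-high and 3595, 3571 and 3481 in LD-low libraries, without overlap (log2 change 0.18 ± 0.07, adjusted p 0.163). On the opposite strand, its exons overlap those of Ydjc over 1670 of 5599 bases and those of Gm15648 over 778. The counting is not stated to use strand. Ydjc had a mean of 27.6 normalized counts in LD-high and 29.1 in LD-low libraries. Ube2o, a large enzyme that joins E2 and E3 activity, had a log2 change of 0.11 ± 0.10 (adjusted p 0.612).

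Among the Usp genes, Usp2, whose transcript cycles with the circadian clock, had the highest mean level per kb of transcript, with 1844 in LD-high and 2073 in LD-low libraries (normalized counts per kb). Usp8 had 1897 in LD-high and 1619 in LD-low libraries. Usp21, which acts on histone H2A, had 1637 in LD-high and 1756 in LD-low libraries, Usp4 1573 in LD-high and 1511 in LD-low libraries and Usp22 1618 in LD-high and 1376 in LD-low libraries. Usp2 counted 6677, 7382 and 7323 normalized counts in LD-high and 7899, 8191 and 7944 in LD-low libraries. All LD-high values lay below all LD-low values, and the log2 change of -0.17 ± 0.07 (adjusted p 0.169) did not pass. Usp21 and Usp4 had -0.10 ± 0.07 (adjusted p 0.446) and 0.06 ± 0.07 (adjusted p 0.666).

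None of the 8 Usp genes of endosomes, mitochondria and other membranes passed, 4 above and 4 below 0. Usp8, which strips ubiquitin from receptors on endosomes, had 7783, 8012 and 7842 normalized counts in LD-high and 6738, 7284 and 6148 in LD-low libraries. The groups did not overlap, and the log2 change was 0.23 ± 0.07 (95% interval 0.08 to 0.38, adjusted p 0.0861, by DESeq2 0.0456). Usp8 was called in 3 of 13 other settings and in 0 of the 6 fits that leave out 1 library (adjusted p 0.0990 to 0.278). Usp30, which sits on the outer mitochondrial membrane and opposes parkin, had 614, 549.9 and 511 normalized counts in LD-high and 672, 681 and 641 in LD-low libraries, with LD-high below LD-low throughout and a log2 change of -0.26 ± 0.11 (adjusted p 0.194). Usp15, another opponent of parkin in human cells, had 0.04 ± 0.08 (adjusted p 0.823), and Usp33, which acts on receptor recycling, -0.07 ± 0.07 (adjusted p 0.631). Usp14, which is bound to the proteasome, had 2080.1 ± 76.3 normalized counts in LD-high and 1996 ± 92.4 in LD-low libraries (mean ± SD, 3 libraries each), a log2 change of 0.06 ± 0.07 (adjusted p 0.704) with a 95% interval of -0.10 to 0.22.

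None of the 11 chromatin and DNA repair Usp genes passed, with a median of 0.02. Usp22, the deubiquitinase of the SAGA coactivator, had 7427, 6649 and 7453 normalized counts in LD-high and 6411, 5736 and 6158 in LD-low libraries. Replicate 2 was the lowest in both groups, which did not overlap, and the log2 change was 0.23 ± 0.07 (adjusted p 0.0851, by DESeq2 0.0411). Usp7, which acts on Mdm2 and p53, had -0.14 ± 0.09 (adjusted p 0.402), and Usp12, a partner of Wdr48, 0.22 ± 0.09 (adjusted p 0.181).

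None of the 18 remaining tested Usp genes passed. Usp25, which acts in immune receptor signalling, had 3161, 3059.5 and 3204 normalized counts in LD-high and 2744, 2897 and 2490.2 in LD-low libraries, without overlap (log2 change 0.22 ± 0.07, adjusted p 0.124). Usp54 had the largest positive log2 change of the tested Usp members, 0.55 ± 0.18 (adjusted p 0.104), with 377, 235 and 327 normalized counts in LD-high and 208, 238 and 185 in LD-low libraries. LD-high replicate 2 lay within the LD-low range, and without it the adjusted p was 0.0452. By DESeq2 with all libraries it was 0.0490. No other of the 6 fits that leave out 1 library, or of 13 other settings, called Usp54. Its highest adjusted p was 0.302, without LD-low replicate 3. Usp49 had -0.86 ± 0.34 (adjusted p 0.180) at no more than 68.7 normalized counts, and 67.2% of its windows occur in Med20. Usp48 and Usp53 had -0.05 ± 0.08 (adjusted p 0.789) and -0.32 ± 0.37 (adjusted p 0.685).

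Low counts left 3 members untested. Ube2d2b had 0, 2 and 0 reads in LD-high and 9, 0 and 0 in LD-low libraries. Usp50 had 1, 5 and 0 reads in LD-high and 2, 4 and 1 in LD-low libraries. Usp26 had 2, 0 and 0 reads in LD-high and 0, 12 and 0 in LD-low libraries, so a single library held all of its LD-low reads. A count of 0 allows up to 3 reads, which is 2.11 to 5.01 normalized counts depending on depth, for counting error only.

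The rest of the relay was read from lists of textbook members. Of all 11624 tested genes 1.53% were called higher and 1.82% lower, and in lists this short 1 call says little about the list. None of the 10 E1 genes passed. Uba1, the main ubiquitin E1, had 5987 ± 587 normalized counts in LD-high and 5009 ± 264 in LD-low libraries (mean ± SD, 3 libraries each), a log2 change of 0.25 ± 0.08 (adjusted p 0.0851), without overlap. Uba7, the ISG15 E1, had -0.21 ± 0.07 (adjusted p 0.109) and Uba2, a SUMO E1 subunit, 0.12 ± 0.07 (adjusted p 0.331). Of 12 genes for ubiquitin and ubiquitin-like proteins 1 rose, Sumo3, with 2812, 2850.1 and 2725 normalized counts in LD-high and 2451, 2237 and 2228 in LD-low libraries (log2 change 0.28 ± 0.07, adjusted p 0.0459). Nedd8 had 0.21 ± 0.09 (adjusted p 0.228).

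Of 8 E2 and E2-like genes with other symbols 1 rose, Atg3, the E2-like enzyme that attaches LC3 to lipid, with 1986, 2281 and 2187 normalized counts in LD-high and 1728, 1729 and 1679 in LD-low libraries (log2 change 0.33 ± 0.08, adjusted p 0.0337). Atg10, the E2-like enzyme of Atg12, had 0.32 ± 0.12 (adjusted p 0.159) and the giant Birc6 -0.36 ± 0.14 (adjusted p 0.171). Of 25 tested deubiquitinases of other families 1 fell, Mysm1, which acts on histone H2A, with 1173, 1335 and 1200.5 normalized counts in LD-high and 1495, 1853 and 1701 in LD-low libraries (log2 change -0.44 ± 0.09, adjusted p 0.0243). Yod1 and Josd1 had -0.59 ± 0.19 (adjusted p 0.110) and 0.23 ± 0.08 (adjusted p 0.133). Each list's 1 call stands beside 1.53% of all tested genes called higher and 1.82% lower. The calls of Sumo3, Atg3 and Mysm1 held in 1, 1 and 2 of the 6 fits that leave out 1 library, with the highest adjusted p at 0.169 (LD-low replicate 2 left out), 0.128 (LD-low replicate 3 left out) and 0.108 (LD-low replicate 2 left out).

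None of 5 tested Usp cofactors passed: Wdr48, which activates Usp12 and Usp46, had 0.15 ± 0.07 (adjusted p 0.258), Atxn7, of SAGA, -0.20 ± 0.15 (adjusted p 0.505) and G3bp1, a partner of Usp10, 0.07 ± 0.07 (adjusted p 0.584). None of 4 ISG15 pathway genes passed, and Isg15 had -0.16 ± 0.24 (adjusted p 0.768). Median log2 changes were 0.12 for E1 genes, 0.04 for ubiquitin and ubiquitin-like genes, 0.08 for E2 genes with other symbols, -0.04 for the other deubiquitinases, -0.01 for cofactors and -0.05 for the ISG15 pathway, beside -0.01 for all genes.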

How the data were processed

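Microglia of 6 libraries were sequenced with a Smart-seq kit and tagmentation, per the labels' protocols. Reads were checked with FastQC 0.11.4 and mapped to mm9 with STAR 2.5.1b, per the submitters' processing notes; the annotation used and any strand setting are not stated there. The values deposited by the authors are a normalized signal (each library's read counts over its own size factor), and 100% came out as whole reads within 0.01 reads. Testing covered genes reaching 10 in 3 or more libraries (11624 of 14148) with limma 3.58.1 (R 4.3.3) on log2(value + 1), 2-sided, with Benjamini-Hochberg adjustment and no term for the replicate number. On the recovered reads edgeR 4.0.16 called 377 genes and DESeq2 1.42.0 called 729. Other alternatives were the pseudocount, the filter, the scaling, the trend, the replicate block, length and GC corrections and leaving out each library. Coordinates and lengths come from GENCODE vM1 (mm9), where all 77 members matched, and promoters from RefSeq (GRCm38.p6). The members and lists were chosen with earlier results of these data known. Named are members past the threshold, the 8 with the smallest p and the 5 with the highest level per kb in each family, and 28 fixed by name. Of other pathway genes, those past the threshold and the 3 with the smallest p in each list are named. Usp24 and Usp31, long genes set beside Usp34, are outside this rule. Some genes under this rule are not reported here. Nothing says that pools were separate mice or that equal numbers share a pool, so the p-values may reflect technical spread between libraries alone.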

Additional observations from a re-analysis of the deposited data

How the results depend on the processing

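The fit used in the report called 390 of all genes, 2 Ube2 and 1 Usp members. DESeq2 on the recovered reads called 729 of all genes, 4 Ube2 and 4 Usp members, and limma without the mean-variance trend called 15 of all genes, 0 Ube2 and 0 Usp members. The edgeR quasi-likelihood test called 377 of all genes, 2 Ube2 and 1 Usp members. Other pseudocounts, no filter, a filter at 50, TMM scaling and the length and GC corrections gave 355 to 429 calls of all genes, 2 to 3 of Ube2 and 1 of Usp members in each. Equal totals per library gave 1 Ube2 call and medians of 0.0459 for Ube2 and -0.000922 for Usp, and divided the calls of all genes into 118 higher and 233 lower, against 178 and 212 with the deposited scaling. Leaving out 1 library at a time, calls ranged over 52 to 421 for all genes, 0 to 2 for Ube2 and 0 to 2 for Usp, and medians over 0.0668 to 0.123 for Ube2, 0.0175 to 0.0470 for Usp and -0.0963 to -0.0343 for Usp minus Ube2, with the fewest calls of all genes without LD-low replicate 3.

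As a check of pairing, deviations of same-numbered samples correlated at 0.161, 0.132 and 0.0641, and those of other pairs at -0.127 to -0.0171; every sample correlated best with its own number, a hint from the data and not from the design. With the replicate block the calls were 1090 of all genes, 4 Ube2 and 3 Usp members. Ube2d3 (adjusted p 0.00991), Ube2g1 (0.0374), Usp22 (0.0128) and Usp8 (0.0180) passed with the block, all higher. The calls were 1146 of all genes, 4 Ube2 and 4 Usp members with the block and the transcript length correction, which added Usp2 as lower (adjusted p 0.0391). Signs turned for members near 0. With equal totals Ube2k was -0.0302, Usp15 -0.000966 and Usp9x -0.0319. Ube2k was -0.000842 with the length correction and -0.000842 with block and length, and Ube2m was 0.0235 with the GC correction. Leaving out 1 library, log2 changes ranged over -0.0296 to 0.0689 for Ube2k, -0.123 to 0.0371 for Ube2m, -0.0255 to 0.0124 for Ube2f, -0.0189 to 0.0972 for Usp15, -0.0878 to 0.00217 for Usp48 and -0.0840 to 0.108 for Usp9x. The causes were not tested. With 3 libraries a group, members at low counts such as Ube2t, Ube2c and Usp49 have intervals too wide to show small differences.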
